A study of Homo sapiens with 12 samples.

Results

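Human keratinocytes of the HaCaT line, which became immortal in culture without a viral gene, were compared after 3 sessions of blue light with cells kept in the dark. The comparison takes 4 of the 12 libraries of the series: dark_3 a and b, the controls labelled for the 3rd session, and blue_3 a and b, the cells that received 3 sessions. All 4 are wild-type HaCaT, and the light was a 408 nm LED at 50 J per cm2 and session, a dose chosen, per the labels, to kill 50% of the cells. The other 8 libraries hold the same contrast after 14 and 42 sessions, again with 2 libraries per group, and enter here for the estimate of the spread and for the test of whether an effect differed. Irradiation took place in buffered saline, cells were passaged between sessions, and all were grown in medium with serum. The labels do not say how the dark cells were handled during a session, nor how long after the last session RNA was taken. The model is 1 immortalized line, and the labels name no other cell type in the cultures.

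Light at the violet end of the visible range is absorbed in cells by flavins, porphyrins and opsins, and part of its energy passes to oxygen, which forms reactive species. Keratinocytes answer injury with several known programmes. SREBP transcription factors raise the enzymes of cholesterol and fatty acid synthesis when membrane sterol falls. Interferons act through JAK kinases and STAT factors on a set of antiviral genes, and alarmins are proteins with which damaged epidermis signals to its surroundings. EGF receptor signalling drives growth and induces its own inhibitors, E2F factors drive the genes of DNA replication at the G1/S border, and cornification turns basal cells into barrier cells.

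Promoters are shown for members of the lipid, interferon and G1/S lists, since a recognition element is known for the factors that drive each of them. The windows come from RefSeq on GRCh38.p14 and run from 250 bases before to 50 bases after the annotated start. Capitals mark the matched element, and both strands were searched. SREBF2 encodes the SREBP factor that governs cholesterol genes, and its window (chr22:41832855-41833154 on the plus strand) held the 1 match to the SREBP element TCACNCCAC among the 12 sterol regulation genes with a window. None of 15 cholesterol synthesis genes and none of 18 fatty acid synthesis genes with a window held it, against 1.39% of 27305 genes, and that says only that these letters are absent from these windows.
SREBF2: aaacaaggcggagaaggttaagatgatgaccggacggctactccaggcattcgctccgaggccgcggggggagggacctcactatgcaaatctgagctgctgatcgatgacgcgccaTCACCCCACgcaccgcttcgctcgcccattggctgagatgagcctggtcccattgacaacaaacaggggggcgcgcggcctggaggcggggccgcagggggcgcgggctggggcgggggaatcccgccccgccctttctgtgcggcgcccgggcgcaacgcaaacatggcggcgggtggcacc
The interferon element TTTCNNTTT was in the window of 30 of 34 interferon effectors, or 88.2%, and of 9 of 25 interferon signalling genes, against 12.6% of all genes. ISG15 (chr1:1013247-1013546 on the plus strand) holds 2 matches that overlap. SAMD9L (chr7:93148336-93148635 on the minus strand) holds 1, and IFIT5 (chr10:89414318-89414617 on the plus strand), a member that lay lower in the irradiated cells, holds 3.
ISG15: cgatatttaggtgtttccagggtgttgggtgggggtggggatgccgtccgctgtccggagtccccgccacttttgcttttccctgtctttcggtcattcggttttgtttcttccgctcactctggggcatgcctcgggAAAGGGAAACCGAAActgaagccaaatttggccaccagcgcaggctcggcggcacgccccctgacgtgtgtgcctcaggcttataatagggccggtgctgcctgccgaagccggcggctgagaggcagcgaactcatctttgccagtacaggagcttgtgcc
SAMD9L: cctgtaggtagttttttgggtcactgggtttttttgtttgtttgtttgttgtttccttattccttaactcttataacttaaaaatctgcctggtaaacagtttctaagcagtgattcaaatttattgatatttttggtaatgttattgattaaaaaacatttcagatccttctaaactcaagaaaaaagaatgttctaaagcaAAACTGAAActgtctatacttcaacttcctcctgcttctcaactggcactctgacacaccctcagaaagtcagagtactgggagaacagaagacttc
IFIT5: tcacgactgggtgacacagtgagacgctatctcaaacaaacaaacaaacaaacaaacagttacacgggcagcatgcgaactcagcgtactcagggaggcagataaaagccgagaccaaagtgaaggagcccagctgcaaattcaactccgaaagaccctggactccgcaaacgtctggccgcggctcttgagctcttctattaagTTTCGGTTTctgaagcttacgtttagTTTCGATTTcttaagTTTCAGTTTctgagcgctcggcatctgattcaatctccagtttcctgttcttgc
The E2F element, taken as TTTCCCGC or TTTGGCGC, was in the window of 25 of 47 G1/S genes, or 53.2%, against 2.75% of all genes. E2F1 (chr20:33686336-33686635 on the minus strand) is itself an E2F factor. MCM6 (chr2:135876394-135876693 on the minus strand), a subunit of the replicative helicase, holds 2 matches, and POLE (chr12:132687293-132687592 on the minus strand), the leading-strand polymerase, holds 1.
E2F1: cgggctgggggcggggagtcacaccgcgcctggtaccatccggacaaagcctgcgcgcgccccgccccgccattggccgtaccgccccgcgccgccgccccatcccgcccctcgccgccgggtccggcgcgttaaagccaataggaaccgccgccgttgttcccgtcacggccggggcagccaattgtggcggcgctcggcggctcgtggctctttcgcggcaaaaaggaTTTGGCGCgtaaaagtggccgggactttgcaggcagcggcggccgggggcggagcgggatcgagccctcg
MCM6: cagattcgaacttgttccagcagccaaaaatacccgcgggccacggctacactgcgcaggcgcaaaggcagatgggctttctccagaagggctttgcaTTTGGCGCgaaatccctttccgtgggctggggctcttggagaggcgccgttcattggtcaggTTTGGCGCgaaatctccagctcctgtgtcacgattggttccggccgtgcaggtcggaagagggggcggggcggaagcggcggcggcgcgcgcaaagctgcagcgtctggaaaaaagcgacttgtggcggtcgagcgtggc
POLE: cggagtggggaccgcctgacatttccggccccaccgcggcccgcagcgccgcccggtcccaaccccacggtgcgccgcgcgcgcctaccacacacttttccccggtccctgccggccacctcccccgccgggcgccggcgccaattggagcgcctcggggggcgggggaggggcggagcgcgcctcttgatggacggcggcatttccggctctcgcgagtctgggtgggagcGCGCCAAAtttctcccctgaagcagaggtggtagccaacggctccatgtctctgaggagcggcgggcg
A match is a string of letters and not a measured binding site. The directions of members with and without one are given without a test. Of the 30 interferon effectors with the element 20 lay above 0, and of the 4 without it 4 did. Of tested interferon signalling genes 4 of 4 with the element and 7 of 14 without it lay above 0. For G1/S genes 22 of 25 with the element and 16 of 22 without it lay below 0.

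Total counts were 6452030 and 7027034 in dark_3 a and b and 7640273 and 6220751 in blue_3 a and b, within the 2073160 to 8183941 of the series. At this depth 3 counts correspond to 0.397 to 0.486 CPM, the library-size-scaled count unit used below (TMM scaling). Mitochondrial genes held 13.7% to 14.53% of counts in the 4 libraries. Keratinocyte markers summed to 6310 to 6981 CPM, and all 12 were detected. Across 8689 genes above 10 CPM, the SD of log2 differences was 0.159 between the 2 dark libraries and 0.24 between the 2 irradiated ones. Between a dark and an irradiated library it was 0.22 to 0.272, so the 2 irradiated libraries differed from each other by about as much as either did from a control. Of the 2 irradiated libraries blue_3 b stood farther from the controls, at 0.254 and 0.272, and blue_3 a at 0.22 and 0.225.

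The first question was which single genes changed after 3 sessions. By edgeR 2 of 12878 tested genes passed an adjusted p of 0.05, which is 0.0155%, and both rose in irradiated cells. Gene values are given below in the order dark_3 a, dark_3 b, blue_3 a, blue_3 b. SYT1, the calcium sensor of synaptic vesicles, stood at 2.06, 2.16, 6.76 and 11.7 CPM. Both irradiated libraries lay above both dark ones, with blue_3 b the highest, and the log2 difference was 2.09 ± 0.33 (SE, edgeR adjusted p = 0.0388). It rested on 28 counts in the dark and 123 in the irradiated libraries, a ratio of 4.24 with an exact 95% counting interval of 2.79 to 6.64. CELF4, a neuronal RNA-binding protein, stood at 0.159, 0.288, 2.52 and 3.24 CPM, a log2 difference of 3.55 ± 0.60 (edgeR adjusted p = 0.0483). That is 3 counts against 39, a ratio of 12.5 with an interval of 3.99 to 63.5. Neither call held without dark_3 a (0 genes, 456 at an unadjusted p under 0.05), without dark_3 b (0, and 609) or without blue_3 b (0, and 615), and 3 genes were called without blue_3 a, of which SYT1 was 1. Leaving out any of the 4 irradiated libraries of the 14 and 42 groups also gave 0 calls, with 875 to 1037 genes at an unadjusted p under 0.05. DESeq2 called SYT1 alone.

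Both called genes are on the list of 20 neuronal markers, which summed to 209, 211, 248 and 280 CPM. That list was chosen with earlier results of these data known, so their place on it is not independent of the calls. Of these 20, 16 had both irradiated libraries above both dark ones, both called genes among them, against 23.7% of all tested genes. The 20 were counted whatever their level, while tested genes had passed a filter on low counts, so the shares come from unlike sets. TUBB3, a defining neuronal tubulin, was at 0 in all 4. The sums are mostly NEFL, a neurofilament, at 146, 146, 148 and 163 CPM. MAP2, a dendritic microtubule protein, stood at 21.6, 21, 32.5 and 36.4 CPM, and NEFM, another neurofilament, at 0.634, 1.01, 3.71 and 6.15. Sums of blood and stromal markers were also higher in both irradiated libraries than in the dark pair, at low levels. Haemoglobin and other erythroid markers summed to 0.951, 1.87, 3.71 and 11.3 CPM with HBD, HBG1, HBG2 and ALAS2 at 0. Fibroblast markers summed to 5.23, 5.62, 10.1 and 11 CPM with the collagens COL1A2 and COL6A3 and with POSTN at 0. Leukocyte markers summed to 2.38, 2.59, 5.17 and 4.53 CPM with 8 of 14 at 0, CD4, CD8A and LYZ among them. In the libraries of the 14 and 42 groups the sums were 1.3 to 44.1 CPM for erythroid, 8.65 to 16.3 for fibroblast and 5.04 to 8.71 for leukocyte markers. The fibroblast and leukocyte sums of the dark pair lay below those ranges, as did the leukocyte sum of blue_3 b. For neuronal markers the range was 97 to 225 CPM, which held both dark libraries and neither irradiated one. Glial markers summed to 186, 200, 212 and 174 CPM, nearly all of it MBP. The part these transcripts play in any result was not tested, and in bulk RNA fewer cells of a type and less RNA per cell cannot be told apart.

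Beyond the 2 calls the smallest adjusted p was 0.13, so the remaining single genes are given as values. At an unadjusted p under 0.05 there were 560 genes higher in irradiated cells, 4.35% of those tested, and 331 lower, 2.57%. With no overlap between the groups 23.7% of genes had both irradiated libraries higher and 19.9% had both lower. Over all tested genes 52.4% lay above 0, with a median log2 difference of 0.01, and the median standard error for the 8723 genes above 10 CPM was 0.142.

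Among genes above 10 CPM the largest difference was in MAP1B, a microtubule-associated protein of growing axons, at 3.65, 6.19, 15.5 and 24.3 CPM, a log2 difference of 1.98 ± 0.53 (edgeR adjusted p = 0.455). CAMK2A, a calcium-dependent kinase of synapses, stood at 4.76, 6.19, 14.2 and 14.7 CPM, and NEDD9, a scaffold of focal adhesions, at 13.2, 14.7, 28.6 and 29 CPM. For both the 2 irradiated libraries lay close together and far from the dark pair. SCGB1A1, the secretoglobin best known from airway club cells, stood at 425, 424, 822 and 898 CPM, or 1.02 ± 0.24 as a log2 difference (edgeR adjusted p = 0.396). SSPN, a membrane protein of the dystrophin complex, differed by 1.01 ± 0.26. MMP13, a collagenase, stood at 14.1, 15.3, 32.1 and 23.8 CPM. PTGS2, the inducible prostaglandin synthase, stood at 7.77, 6.91, 12.6 and 15.5 CPM. PLPP3, a lipid phosphatase, differed by 0.91 ± 0.17 (adjusted p = 0.13), the mitochondrial serine tRNA gene MT-TS2 by 0.97 ± 0.23 and the non-coding LINC01133 by 0.85 ± 0.19. All of these had both irradiated libraries above both dark ones, which the rule that named them required. For CAMK2A, NEDD9 and TGM1 the unadjusted p was 0.000359, 0.000117 and 0.000806, and the edgeR adjusted p 0.267, 0.162 and 0.338. For SSPN, MT-TS2, MMP13, PTGS2 and LINC01133 it was 0.00105, 0.00113, 0.000138, 0.000887 and 0.000215, adjusted to 0.351, 0.355, 0.162, 0.338 and 0.213. MAP1B and SCGB1A1 had unadjusted p of 0.00533 and 0.00189, and PLPP3 of 3.04e-05.

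The largest negative difference was in CALB2, the calcium buffer calretinin, at 21.6, 19.6, 12.6 and 8.58 CPM, a log2 difference of -0.94 ± 0.19 (edgeR adjusted p = 0.138). MYC, the growth-promoting transcription factor, stood at 16.2, 15.3, 10.3 and 7.61 CPM, and DKK1, a secreted Wnt inhibitor, at 22.4, 24.3, 17.1 and 11.3. In all 3 the blue_3 b library was the lowest. RCC1, the exchange factor of the Ran GTPase, stood at 55.3, 48.2, 35.2 and 31.9 CPM. The ubiquitin ligases RNF138 and RNF2 differed by -0.82 ± 0.22 and -0.65 ± 0.20, the splicing regulator RBM4B by -0.79 ± 0.26, the RNA exosome subunit EXOSC3 by -0.64 ± 0.18, FAM216A by -0.68 ± 0.16 and the transcribed pseudogene SFTA1P by -0.62 ± 0.21. Unadjusted p ran from 4.67e-05 for FLG, described with the differentiation genes, to 0.00996 for DKK1, and edgeR adjusted p from 0.138 to 0.535. RBM4B differed widely with the library left out, at -1.41 without blue_3 a and -0.40 without blue_3 b.

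**Figure D1:**
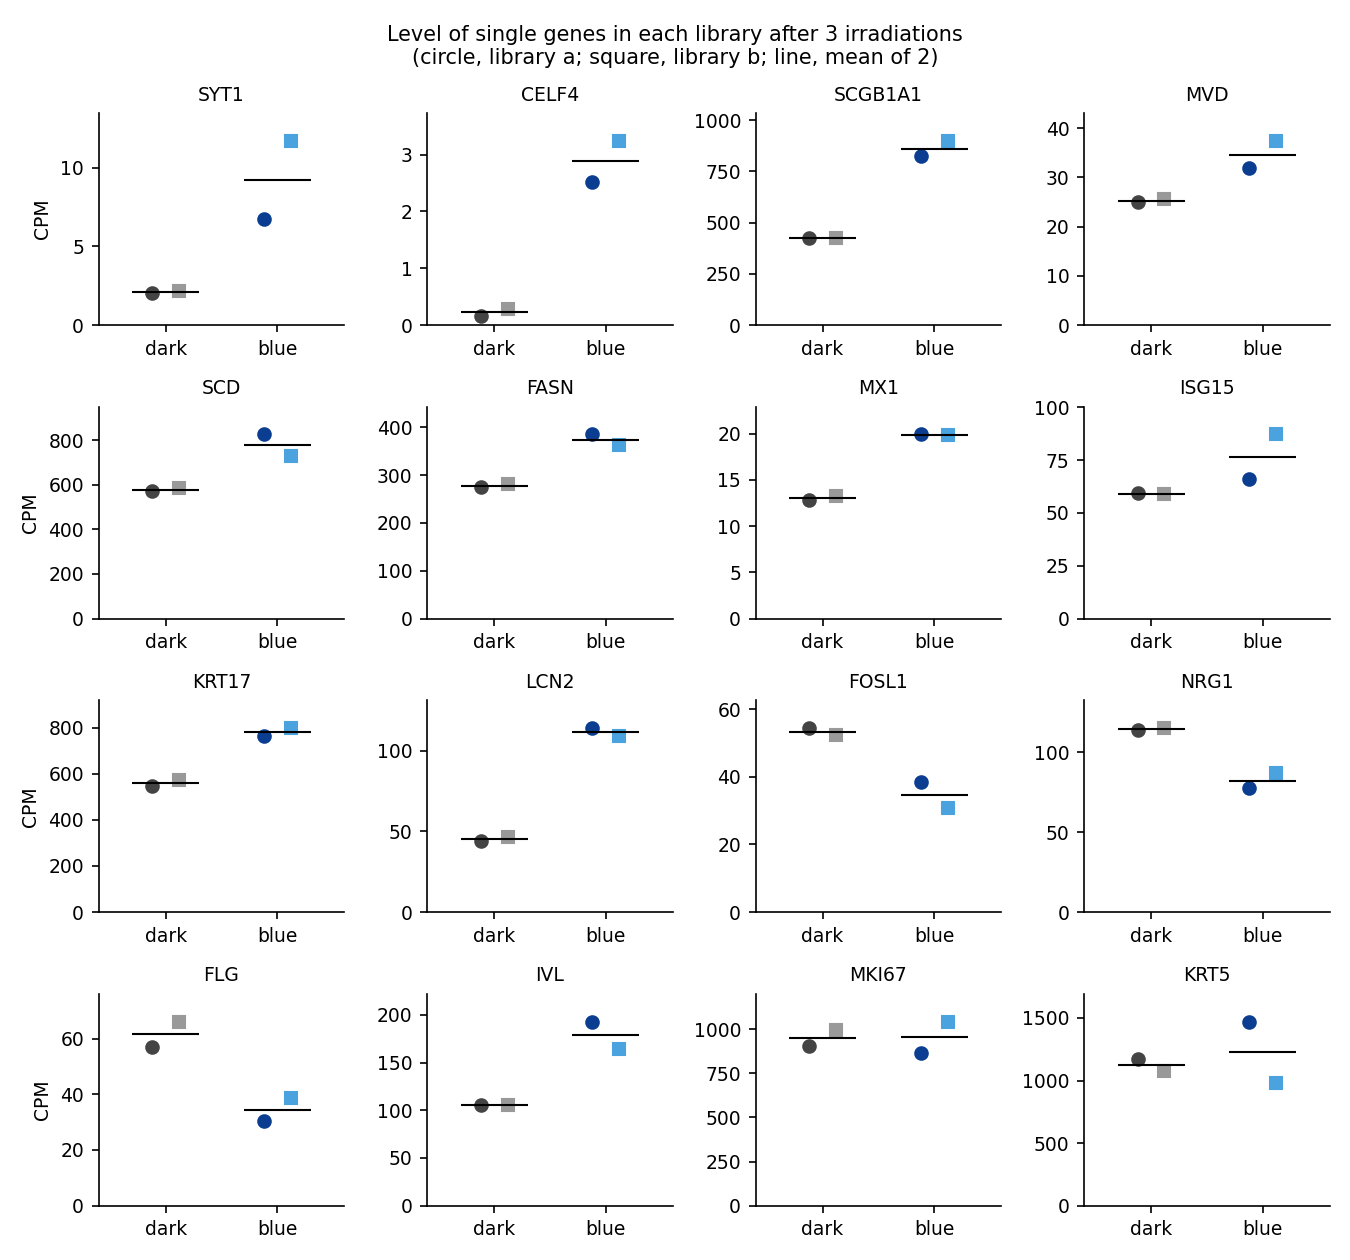
Level of 16 genes, in CPM on a linear axis from 0, in each of the 4 libraries after 3 irradiations. Circles are library a, squares library b, and lines the mean of 2. SYT1, SCGB1A1, LCN2 and IVL separate the groups widely, SCD and FASN by less, and MKI67 and KRT5 overlap.

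The next question was whether pathways shifted together. For each list the count of tested members above 0 is read against 52.4% over all genes, and counts of members without overlap against 23.7% and 19.9%. No member of any of the 22 lists passed the test over all genes.

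Of 20 cholesterol synthesis genes 19 were tested and 17 lay above 0, with a median log2 difference of 0.14. In 12 both irradiated libraries were above both dark ones and in none below. The mevalonate arm builds isoprenoid units. MVD, which makes isopentenyl diphosphate, stood at 24.9, 25.5, 31.8 and 37.4 CPM, a log2 difference of 0.45 ± 0.14 (edgeR adjusted p = 0.422). FDPS, which joins the units into farnesyl diphosphate, stood at 199, 194, 235 and 248 CPM, or 0.30 ± 0.12. ACAT2, the first enzyme of the arm, differed by 0.26 ± 0.14, and HMGCS1, which makes HMG-CoA, by 0.14 ± 0.12. In the sterol arm LSS, which closes the ring, stood at 23.1, 21.7, 27.6 and 30.4 CPM (0.37 ± 0.15). NSDHL, a sterol dehydrogenase, stood at 63.6, 68, 80 and 81.3 CPM (0.29 ± 0.12), and TM7SF2, a sterol reductase, at 9.04, 7.2, 12.8 and 9.88 CPM (0.50 ± 0.22). SQLE, the oxygenase that commits squalene to sterols, differed by 0.03 ± 0.14. The list median was 0.17 in blue_3 a and 0.10 in blue_3 b relative to the dark mean.

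Among genes that regulate sterol supply 11 of 15 lay above 0, the median being 0.24, with 7 without overlap higher and 1 lower. SREBF2 stood at 39, 40.6, 53.2 and 47.3 CPM (0.34 ± 0.13, edgeR adjusted p = 0.601). INSIG1, which holds SREBP in the endoplasmic reticulum and is itself an SREBP target, stood at 76.4, 84, 111 and 98.9 CPM (0.39 ± 0.15). In both genes blue_3 a was the highest library. SREBF1, the factor of fatty acid genes, stood at 50.3, 57.3, 69.8 and 57.3 CPM, so that blue_3 a alone stood above the dark pair. MYLIP, a ubiquitin ligase, differed by 0.37 ± 0.20 and the oxysterol receptor NR1H2 by 0.33 ± 0.20. NPC2, a lysosomal sterol carrier, differed by -0.18 ± 0.19. Without blue_3 a the list median was 0.09 and without blue_3 b 0.27, so the list lay higher mostly in blue_3 a.

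In fatty acid synthesis 16 of 20 genes lay above 0, the median being 0.16, with 8 without overlap higher and 1 lower. FASN, which builds palmitate, stood at 275, 281, 385 and 363 CPM (0.43 ± 0.12, edgeR adjusted p = 0.413), and SCD, which desaturates stearate, at 572, 583, 825 and 729 CPM (0.43 ± 0.11, adjusted p = 0.338). In each the lower irradiated library stood well above the higher dark one, and the log2 difference over all leave-one-out fits was 0.38 to 0.47 for FASN and 0.33 to 0.51 for SCD. FADS1, a desaturase of polyunsaturated chains, stood at 120, 110, 129 and 154 CPM. ACACA, the carboxylase that makes malonyl-CoA, differed by 0.17 ± 0.12 and ACLY, which supplies acetyl-CoA, by 0.06 ± 0.10. SCD5, a second stearoyl desaturase at under 10 CPM, differed by 0.63 ± 0.24. HACD3, a dehydratase of chain elongation, lay lower at -0.15 ± 0.10. Barrier lipid genes, which make the ceramides of the cornified layer, did not share this, with 6 of 13 tested members above 0 and a median of -0.02.

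**Figure D2:**
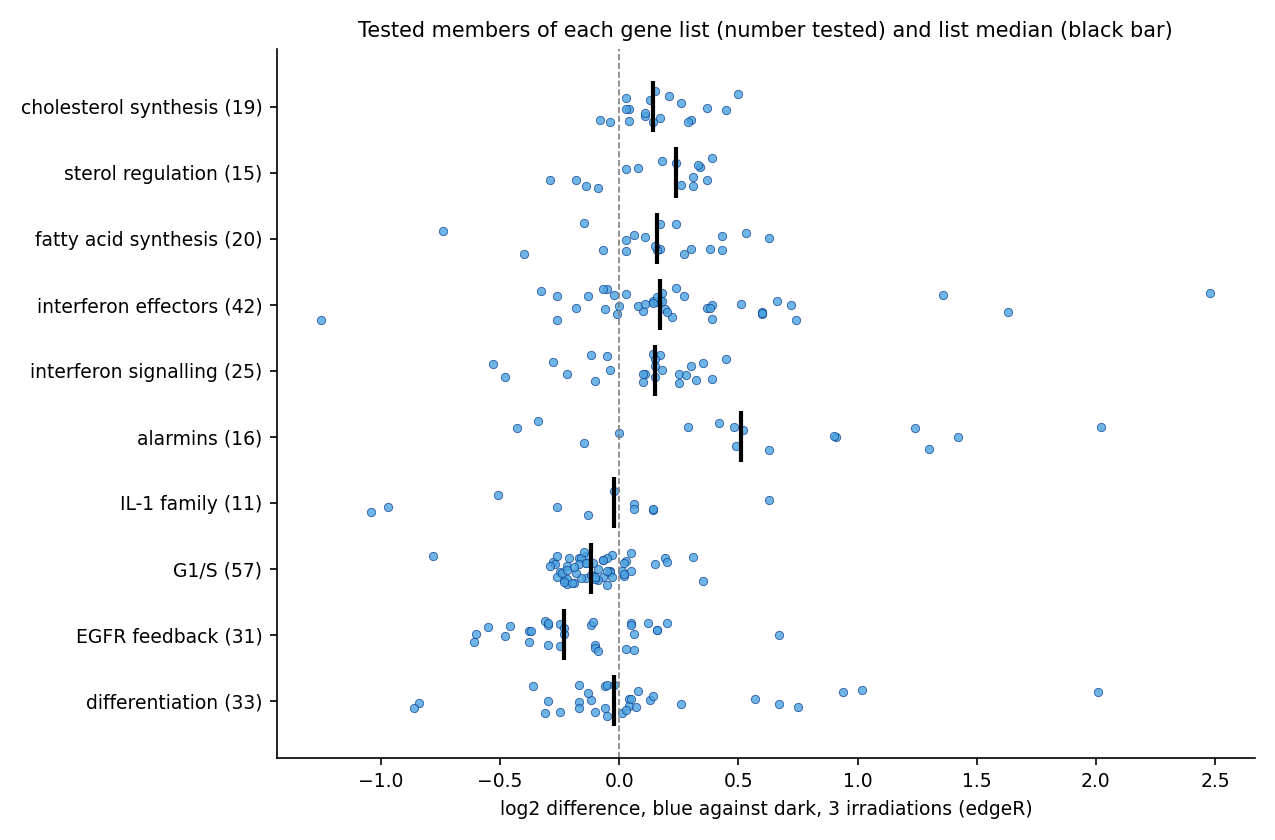
Log2 difference between irradiated and dark cells after 3 irradiations for every tested member of 10 gene lists, 1 point per gene, with the list median as a black bar. Medians run from -0.23 for the whole EGFR list, labelled EGFR feedback, to 0.51 for alarmins. In each list points lie on both sides of 0.

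Interferon effectors, the antiviral products at the end of the pathway, lay above 0 in 31 of 42 cases, the median being 0.17. In 28 both irradiated libraries were higher and in 6 both were lower. MX1, an antiviral GTPase, stood at 12.8, 13.3, 19.9 and 19.8 CPM (0.60 ± 0.19, edgeR adjusted p = 0.455), the 2 irradiated libraries almost equal. UBE2L6, the conjugating enzyme for ISG15, stood at 45.2, 46.8, 55.2 and 65.2 CPM (0.39 ± 0.13), and SAMD9L, an inhibitor of viral translation, at 25.1, 24.5, 29.7 and 35.1 CPM (0.38 ± 0.15). ISG15, the ubiquitin-like modifier, stood at 59.5, 58.8, 66.2 and 87.1 CPM (0.37 ± 0.18), and without blue_3 b its difference was 0.16. Others with many counts were IFITM3, a membrane restriction factor, at 663, 628, 761 and 765 CPM, and RSAD2, which makes an antiviral nucleotide, at 24.3, 25.2, 28.2 and 31.6 CPM. The IFIT family, RNA-binding translation blockers, lay at or below 0. IFIT1 differed by -0.13 ± 0.19, IFIT2 by 0.00 ± 0.13, IFIT3 by -0.01 ± 0.13 and IFIT5, at 21.4, 24.1, 19.2 and 17 CPM, by -0.33 ± 0.15. The kinase EIF2AK2 and the sensor OASL lay at -0.07 ± 0.10 and -0.06 ± 0.12. The list median was 0.16 in blue_3 a and 0.22 in blue_3 b, the reverse of the order in the lipid lists.

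Upstream of these genes, none of the 6 interferon ligands on the list had enough counts to be tested. Group means were 0 CPM in dark_3 and blue_3 for IFNB1, IFNL2 and IFNL3, and 0.677 and 0.309 CPM for IFNL1. Receptors showed no common direction, with 3 of 6 above 0, and IFNAR1 at 55.3, 59.8, 56.7 and 55.4 CPM. Of 10 kinases and transcription factors 7 lay above 0. IRF1, an interferon-induced factor, stood at 118, 122, 174 and 153 CPM (0.45 ± 0.20, edgeR adjusted p = 0.71), STAT2, a subunit of the ISGF3 complex, at 22.5, 25.9, 31.3 and 32.2 CPM (0.39 ± 0.16), and the kinase JAK1 at 67.4, 66.8, 81.5 and 78.4 CPM (0.25 ± 0.12). In these 3 the groups did not overlap. IRF9, another ISGF3 subunit, stood at 2.38, 1.87, 1.19 and 1.78 CPM, too few counts to place. IRF7, which amplifies interferon production, stood at 8.56, 8.5, 12.1 and 8.74 CPM, high in blue_3 a alone. Among sensors and adaptors the RNA sensor IFIH1 differed by 0.15 ± 0.15 and the kinase TBK1, at 20.8, 22, 17.5 and 17.8 CPM, by -0.28 ± 0.15. The inhibitor PIAS1 differed by 0.15 ± 0.12. Antigen presentation by MHC class I, which interferon also raises, had 15 of 17 tested genes above 0 with a median of 0.14. PSMB9, an immunoproteasome subunit, stood at 83.7, 79.1, 112 and 119 CPM (0.50 ± 0.14), the peptide trimmer ERAP1 at 19, 13.5, 26.1 and 23.6 CPM (0.62 ± 0.18) and the peptide loader TAPBP at 180, 195, 244 and 264 CPM (0.44 ± 0.14). These 3 were chosen after their values were seen. The heavy chains HLA-B and HLA-C were both high in blue_3 a and not in blue_3 b, as with HLA-C at 73.2, 74.3, 98.4 and 55.9 CPM. Reads of such near-identical genes may be split between them.

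Alarmins had the largest median among the lists, 0.51, with 12 of 16 tested members above 0, 3 below and S100A7A at 0 counts in all 4 libraries. In 11 both irradiated libraries were higher and in 2 lower. Only 6 of the 16 stood above 10 CPM, of which 5 lay above 0. KRT17, a stress keratin, stood at 548, 573, 762 and 798 CPM (0.48 ± 0.12, edgeR adjusted p = 0.338). KRT6A, the other abundant stress keratin, went the other way, at 658, 751, 555 and 556 CPM (-0.34 ± 0.24), while KRT16 stood at 5.55, 5.33, 5.96 and 7.45 CPM. These keratins have close paralogs and pseudogenes, so their counts are uncertain. LCN2, which withholds iron from microbes, stood at 43.8, 46.7, 114 and 109 CPM (1.30 ± 0.45, adjusted p = 0.642). Its 2 groups are far apart here, and with only the 3-irradiation libraries in the fit its adjusted p was 0.000224. SLPI, an antiprotease, stood at 42.2, 40, 58.4 and 57.3 CPM (0.49 ± 0.17), and the defensin DEFB1 at 4.28, 4.61, 10.3 and 6.15 CPM (0.90 ± 0.28). The S100 alarmins S100A8 and S100A9 stood at 7.45, 5.91, 10.1 and 7.61 CPM and at 19, 19.6, 29.4 and 25.7 CPM, with errors of 0.92 and 0.75 that exceed their differences of 0.42 and 0.52. S100P, a calcium-binding relative, stood at 24.6, 26.9, 40.1 and 39.5 CPM.

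The IL-1 family had no shared direction, with 5 of 11 tested members above 0 and a median of -0.02. Of its 8 cytokines 3 were tested, and none passed. IL1B, the secreted inflammatory cytokine, stood at 34.6, 29.8, 20.3 and 25.1 CPM (-0.51 ± 0.15, edgeR adjusted p = 0.408), and IL18, released by the inflammasome, at 89.7, 84.3, 75.8 and 69.3 CPM (-0.26 ± 0.13). IL1A, the cytokine stored in keratinocytes, stood at 4.91, 4.03, 5.56 and 3.08 CPM, with the irradiated libraries on both sides of the dark pair. The inflammasome adaptor PYCARD differed by 0.14 ± 0.11, the co-receptor IL1RAP by 0.14 ± 0.14 and the receptor IL1R1 by -0.13 ± 0.20. The irradiated libraries parted on this list, with medians of 0.08 in blue_3 a and -0.31 in blue_3 b.

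G1/S genes mostly lay slightly lower. Of 57 tested members 12 lay above 0, and the median was -0.12. In 28 both irradiated libraries were lower and in 6 both higher, against 19.9% and 23.7% of all genes. All 17 origin licensing genes, which load and fire the replicative helicase, lay below 0, between -0.28 and -0.03, and in 11 the groups did not overlap. Among them GINS4, a helicase subunit, stood at 33.1, 32.7, 30.3 and 23.6 CPM (-0.28 ± 0.15, edgeR adjusted p = 0.739), ORC6, of the origin recognition complex, at 41.4, 43.9, 36.6 and 36.6 CPM (-0.22 ± 0.14) and MCM6 at 90.8, 90.6, 77.6 and 84.5 CPM (-0.16 ± 0.14). At the fork 21 of 30 lay below 0. POLE stood at 39.6, 47, 33.5 and 39.8 CPM (-0.25 ± 0.14), and SLBP, the histone mRNA binder, at 31.9, 31.3, 25.2 and 28.3 CPM (-0.24 ± 0.14). UNG, which removes uracil from DNA, ran against the list at 45.3, 44.4, 62.1 and 52 CPM (0.35 ± 0.13). Of 10 cyclins and E2F factors 7 lay below 0, with a median of -0.10. E2F1 stood at 37.3, 33.1, 34.2 and 29.6 CPM, CCNE2, a cyclin of S-phase entry, at 19.8, 22, 18 and 21 CPM, and CCND1, the G1 cyclin, at 779, 789, 726 and 748 CPM (-0.09 ± 0.11).

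Among inhibitors of the cyclin-dependent kinases, D cyclins and RB proteins 8 of 12 tested genes lay above 0, with a median of 0.08, 4 without overlap higher and 3 lower. CDKN1A, the p53-induced p21, stood at 44.4, 44.2, 65.4 and 62.2 CPM (0.53 ± 0.16, edgeR adjusted p = 0.443), and CDKN2B, the TGF-beta-induced p15, at 11.4, 10.8, 19.9 and 18.9 CPM (0.81 ± 0.17, adjusted p = 0.162). CCND2, a D cyclin, stood at 158, 141, 128 and 111 CPM (-0.32 ± 0.11). CDKN2B and CCND2 were chosen after their values were seen. In both inhibitors the dark pair and the irradiated pair were each nearly equal. The p53 targets, CDKN1A included, had 11 of 23 above 0 and a median of 0.00, with MDM2, the feedback ligase of p53, at 31.6, 36.2, 35.6 and 32.1 CPM. Mitosis genes had 10 of 35 above 0 and a median of -0.07. MKI67, the proliferation marker, stood at 905, 993, 867 and 1043 CPM, the irradiated libraries lying on either side of the dark pair.

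**Figure D3:**
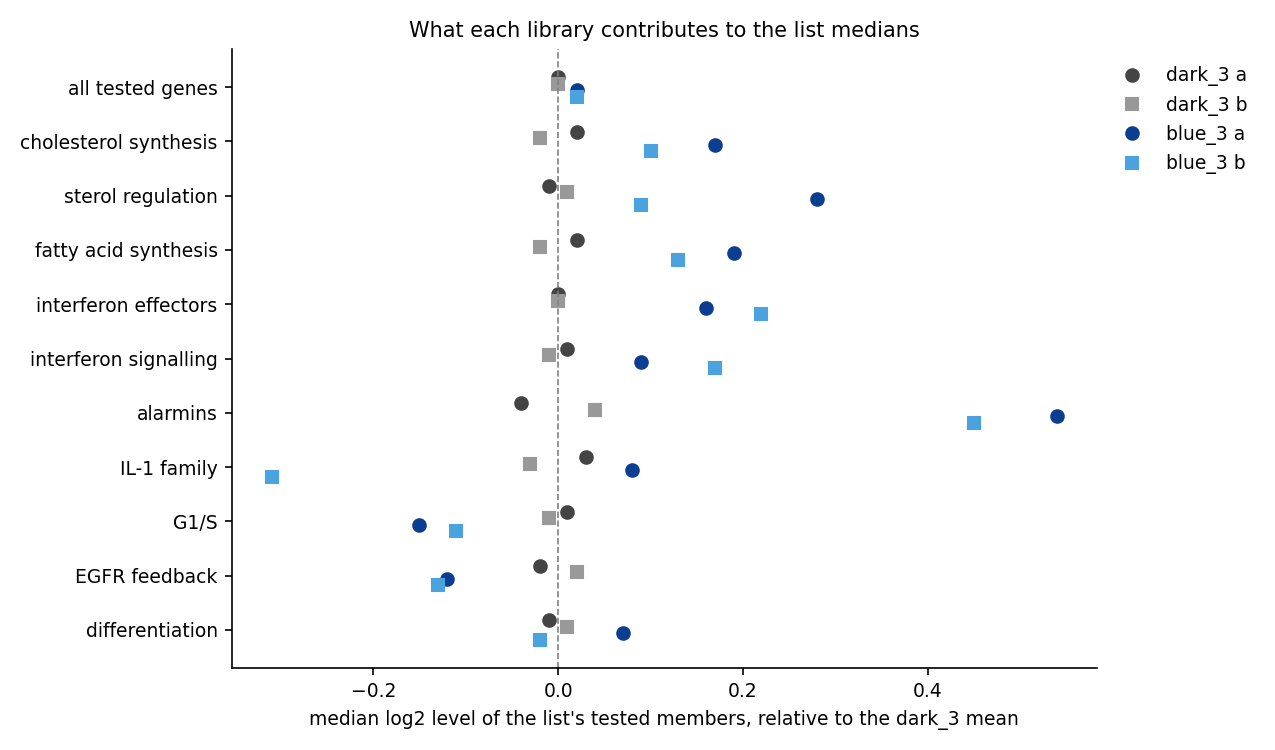
Median log2 level of the tested members of each list in each library, relative to the mean of the 2 dark libraries. The irradiated libraries lie on the same side of both dark ones for lipid, interferon, alarmin, G1/S and EGFR lists, with blue_3 a farther out for sterol regulation, blue_3 b for interferon effectors, and the 2 on opposite sides for the IL-1 family and differentiation.

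EGFR ligands, receptors, feedback inhibitors and ERK target genes had 10 of 31 tested members above 0 and a median of -0.23, with 15 without overlap lower and 5 higher. That median depended on which members and libraries entered. Over the 19 members above 10 CPM it was -0.12, with 8 above 0. It was -0.15 without blue_3 a, dark_3 a or dark_3 b and -0.12 without blue_3 b. Relative to the dark mean the list median was -0.12 in blue_3 a and -0.13 in blue_3 b. Among ligands NRG1, which binds the ERBB3 and ERBB4 receptors, stood at 114, 115, 77.5 and 86.6 CPM (-0.48 ± 0.15, edgeR adjusted p = 0.455) and AREG, the main keratinocyte ligand, at 22.2, 22.6, 17.6 and 16.8 CPM (-0.38 ± 0.24). HBEGF, at 45.2, 38.3, 45.3 and 41.4 CPM, and EREG, at 5.39, 3.31, 3.71 and 3.24 CPM, overlapped between the groups. The receptor itself, EGFR, stood at 551, 587, 554 and 611 CPM. Of 11 tested feedback inhibitors 9 lay below 0. The ERK phosphatases DUSP6, DUSP4 and DUSP7 stood at 171, 164, 154 and 131 CPM, at 17.1, 18.6, 13.5 and 13.9 CPM, and at 20.5, 19.4, 16.3 and 9.71 CPM. In each of these the irradiated libraries were below the dark ones, and DUSP7 was named outside the set rules. The 2 feedback inhibitors above 0 were DUSP5, another ERK phosphatase, at 0.20 and CBL at 0.05. SPRY4, which blocks Ras activation, stood at 2.06, 1.3, 0.927 and 1.94 CPM, too few counts to order. FOSL1, an AP-1 factor stabilised by ERK, had the smallest p of the list, at 54.4, 52.3, 38.5 and 30.9 CPM (-0.61 ± 0.14, edgeR adjusted p = 0.231). PHLDA1, another ERK target, stood at 130, 127, 112 and 97.8 CPM (-0.30 ± 0.13), while EPHA4, an ephrin receptor, stood higher at 6.98, 8.07, 11.8 and 12.3 CPM (0.67 ± 0.23). Immediate early genes, which the same pathway can switch on, did not lie lower as a list: 13 of 19 were above 0. ATF3, a stress factor, stood at 21.1, 18.6, 30.9 and 32.7 CPM (0.68 ± 0.16), and EGR1, a serum-response factor, at 112, 110, 198 and 168 CPM (0.72 ± 0.23), both named after their values were seen.

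Differentiation genes had no shared direction, with 16 of 33 tested members above 0 and a median of -0.02, and 22 of the 55 were not tested. By role the medians were 0.32 for the cornified envelope, 0.02 for proteases and inhibitors, -0.13 for transcription factors and -0.11 for suprabasal genes. Above 0 lay 5 of 8 proteases and inhibitors, 3 of 11 transcription factors and 0 of 4 suprabasal genes. Over members above 10 CPM the envelope and transcription factor medians were 0.06 and 0.00. The cornified envelope, the protein shell of dead keratinocytes, held genes of both directions, with 8 of 10 tested above 0. IVL, the early envelope protein involucrin, stood at 106, 106, 193 and 164 CPM (0.75 ± 0.15, edgeR adjusted p = 0.138). TGM1, the enzyme that crosslinks it, stood at 6.02, 4.18, 9.93 and 10.7 CPM (1.02 ± 0.26, adjusted p = 0.338). FLG, which encodes the late barrier protein filaggrin, stood at 57.1, 66.1, 30.3 and 38.7 CPM (-0.84 ± 0.16, adjusted p = 0.138). With only the 3-irradiation libraries in the fit IVL and FLG passed, at edgeR adjusted p = 0.0136 and 0.0259. Both also passed without dark_42 a, at 0.0362 and 0.00934, and without dark_42 b, at 0.0325 and 0.00908. IVL passed without dark_14 a or dark_14 b as well, at 0.0443 and 0.0484, and FLG with the replicate block, at 0.0418. The suprabasal keratins KRT1 and KRT10 stood at 29.6, 28.5, 27.8 and 25.7 CPM and at 151, 153, 159 and 132 CPM. Of the kallikreins, proteases of the cornified layer, KLK10 stood at 201, 212, 231 and 263 CPM (0.26 ± 0.11). KLF4, a factor of terminal differentiation, stood at 14.4, 14.7, 12.7 and 10.8 CPM (-0.30 ± 0.18). Basal layer genes had 12 of 18 above 0 and a median of 0.07, with 7 without overlap higher and 3 lower. The set basal markers overlapped between the groups. KRT5 stood at 1173, 1080, 1471 and 983 CPM, KRT14 at 672, 727, 787 and 668 CPM and TP63, the basal master regulator, at 48.2, 41.9, 48.9 and 36.1 CPM. In these 3 blue_3 a was the highest library and blue_3 b the lowest, and the sign of KRT5 turned to -0.20 without blue_3 a.

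Genes tied to oxidants, heat and light were listed as well. HMOX1, the oxidant-induced haem oxygenase, stood at 1.11, 1.01, 1.72 and 3.89 CPM (1.35 ± 0.49, edgeR adjusted p = 0.56), most of it in blue_3 b. NRF2 targets had 8 of 25 above 0 and a median of -0.03, and NQO1, a quinone reductase, stood at 138, 142, 113 and 89.4 CPM. Chaperones had 4 of 20 above 0 and a median of -0.14, with 13 without overlap lower and HSPA8, the constitutive chaperone, at -0.45 ± 0.16 (adjusted p = 0.593), both irradiated libraries lying below both dark ones. HSPB1, a small heat shock protein, ran against that at 1230, 1259, 1713 and 1521 CPM. NQO1, HSPA8 and HSPB1 were chosen after their values were seen. Light-sensing genes had 4 of 13 tested above 0 and a median of -0.10. OPN3, an opsin expressed in skin, stood at 47.4, 53.4, 67.2 and 56.7 CPM (0.30 ± 0.12). The opsins OPN1SW, OPN4 and OPN5 were at 0 in all 4 libraries.

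How many genes passed depended on which libraries gave the spread. With only the 4 libraries compared here, 22 genes passed in edgeR, 21 higher and 1, FLG, lower. Besides SYT1, CELF4, IVL and FLG these included KRT17, LCN2, SCGB1A1, CAMK2A, MAP1B, NEDD9, EGR1, MT-TS2, the acute phase protein SAA1, the fibronectin gene FN1 and the death ligand TNFSF10. Without the 14-irradiation libraries 8 passed, among them IVL, SCGB1A1, NEDD9 and MMP13. With only 2 libraries a group, and letters a and b that the labels do not tie to separate cultures, a p-value here reflects only how far these libraries differ from one another, which can be technical variation.

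The last question was whether the early effect differed from the effect after 14 and 42 irradiations. The 3 contrasts share no library. By edgeR 5 genes differed between 14 and 3 irradiations, 0.0388% of those tested, and 56 between 42 and 3, 0.435%. SYT1 went from 2.09 ± 0.33 after 3 to -1.35 after 14 and -0.51 after 42, with a difference of -3.44 between 14 and 3 (edgeR adjusted p = 0.00183). CELF4, NEFM and MAP2 also had the lower effect at 14, at adjusted p = 0.0211, 0.0336 and 0.0336. Between 42 and 3 irradiations 4 interferon effectors differed, all lower at 42. ISG15 went from 0.37 to -1.01 (adjusted p = 0.028), DDX60, a helicase, from 0.20 to -0.79, IFIT2 from 0.00 to -0.80 and OASL from -0.06 to -0.82. The RNA sensor RIGI differed as well, from 0.18 to -0.80. FLG and CALB2 had the opposite order, FLG going from -0.84 to 0.55 (adjusted p = 0.0132). ATF3 went from 0.68 to -0.51 (adjusted p = 0.0193). SYT1, CELF4, FLG and CALB2 were named for their difference after 3 irradiations, which enters these tests. No member of the lipid, alarmin, IL-1, G1/S or EGFR lists differed in either test. FASN differed between irradiated and dark cells by 0.07 ± 0.13 after 14 irradiations and by 0.54 ± 0.12 after 42 (edgeR adjusted p = 0.0288). The list medians after 14 and 42 irradiations were -0.04 and -0.02 for cholesterol synthesis, 0.07 and 0.03 for fatty acid synthesis and 0.44 and 0.56 for alarmins. They were 0.20 and 0.16 for sterol regulation and 0.25 and 0.26 for the IL-1 family. For G1/S they were -0.06 and -0.11, and for the whole EGFR list -0.05 and -0.08. The 11 tested feedback inhibitors of that list had medians of -0.04 and 0.08. These counts depended on single libraries: between 42 and 3 irradiations 2 to 209 genes differed when 1 library was left out, with 2 without dark_3 b or blue_42 b, 3 without blue_3 b, 4 without dark_3 a or blue_42 a, 27 without dark_42 b, 171 without blue_3 a and 209 without dark_42 a. Between 14 and 3 irradiations it was 1 to 38, with 1 without dark_3 a, blue_3 b, blue_42 a or blue_42 b, 2 without dark_3 b, 3 without blue_14 b and 10 to 38 without dark_14 b, blue_14 a, either dark_42 library or blue_3 a.

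**Figure D4:**
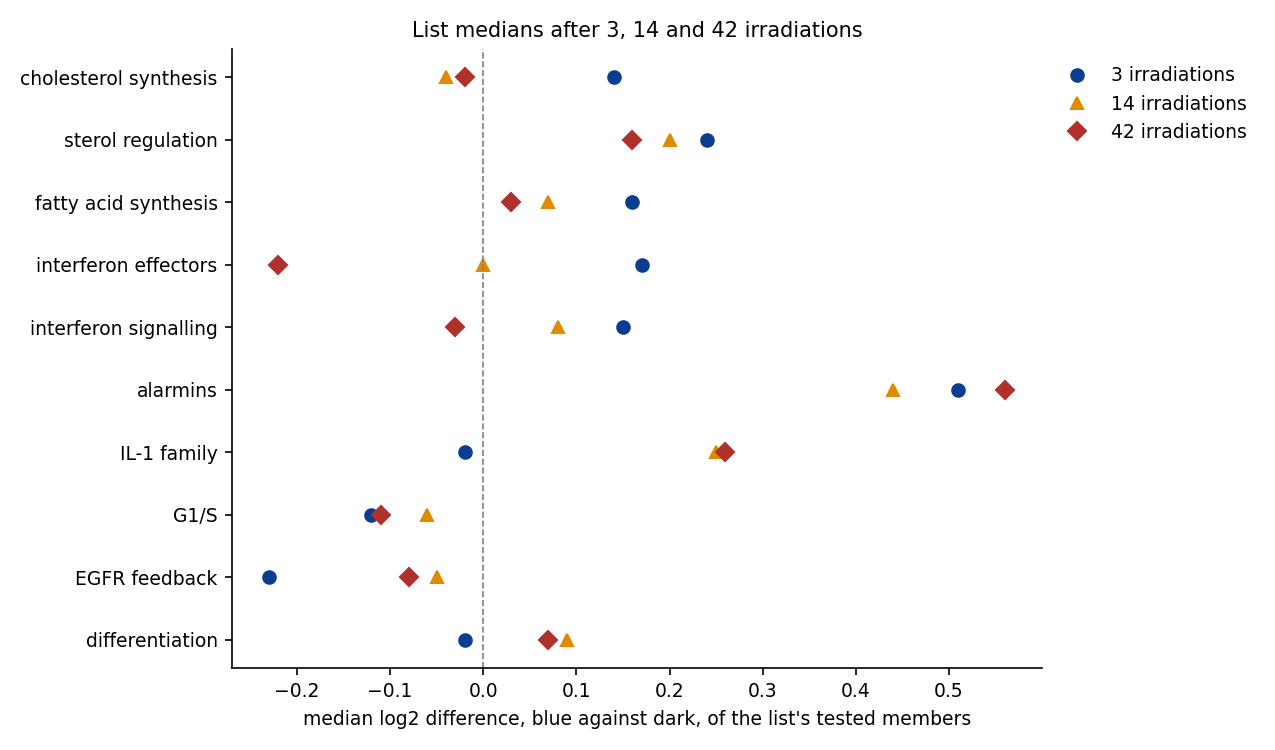
Median log2 difference between irradiated and dark cells for the tested members of 10 lists after 3, 14 and 42 irradiations, each against its own dark libraries. The interferon effector median goes from 0.17 through 0.00 to -0.22, while the alarmin median lies between 0.44 and 0.56.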

How the data were processed

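Per the labels, QuantSeq 3' FWD libraries were prepared from whole-cell RNA, so a count is about 1 tag near the 3' end of a transcript and needs no length scaling. The deposited table holds raw whole-number counts per gene made by the authors, with STAR and featureCounts on GRCh38 named in the submitters' processing notes. Versions, strandedness, the gene annotation used for counting and any molecular identifiers are not given in the labels, so antisense, overlapping and near-identical genes are uncertain.

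The 12 libraries were grouped by title. Of 45372 rows 12878 passed filterByExpr (minimum count 10) in edgeR 4.0.16 under R 4.3.3. One quasi-likelihood model with TMM scaling, robust estimation and 6 group means left 6 residual degrees of freedom, and the common coefficient of variation was 9.41%. Tests were two-sided with Benjamini-Hochberg adjustment over all tested genes, called under 0.05. Errors beside log2 differences are standard errors from the test statistic. A gene counts as not overlapping when both irradiated libraries lie beyond both dark ones. The 2 libraries of each group differed by more than sampling noise (chi-square per degree of freedom of 1.64 in dark_3 and 5.84 in blue_3) and each counted once. Counting intervals are exact and cover counting error only.

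The comparison, the 22 gene lists and the marker lists were chosen with earlier results of these data known, and the lists get no test. Of 548 listed genes 546 matched the table by its symbols or GENCODE release 29, and 484 were tested. Named genes were the 5 with the smallest p above 10 CPM on each of 10 lists, the 12 largest differences each way at an unadjusted p under 0.01 without overlap and above 10 CPM, all called genes, and 33 set genes. Some further members are named to describe a list by role, and some genes are not reported here. Per-library list medians use log2 CPM with a prior count of 2. Alternatives were RLE and upper-quartile scaling, DESeq2 1.42.0, testing every gene with a count or those above 5 CPM, non-robust estimation, a replicate block, fits without other irradiation numbers, and leaving out each library. Scripts were tested on simulated counts.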

Additional observations from a re-analysis of the deposited data

Results flagged for a closer look

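For 13 of the genes named above the blue light effect after 3 irradiations differed from a later effect when the difference itself was tested with edgeR. Over all 12878 tested genes 5, or 0.0388%, differed between 14 and 3 irradiations and 56, or 0.435%, between 42 and 3. SYT1, CELF4, FLG, CALB2 and NEDD9 were named for their difference after 3 irradiations, which enters this test, so their place here is not independent of that choice. SYT1, the synaptic calcium sensor, had an effect lower by 3.44 on the log2 scale after 14 irradiations than after 3 (-3.44) and by 2.61 after 42 (-2.61, edgeR adjusted p = 0.0201). CELF4, the neuronal RNA-binding protein, differed by -4.88 between 14 and 3 irradiations (adjusted p = 0.0211). Between 42 and 3 irradiations ISG15, the ubiquitin-like modifier, differed by -1.38 ± 0.25 (adjusted p = 0.028) and NEDD9, the adhesion scaffold, by -1.50 ± 0.31 (adjusted p = 0.0334). FLG, which encodes filaggrin, differed by 1.39 ± 0.22 and CALB2, the calcium buffer, by 1.51 ± 0.25, both at adjusted p = 0.0132. Between 14 and 3 irradiations the neuronal genes NEFM and MAP2 differed by -4.55 and -1.27. Between 42 and 3 the interferon genes DDX60, IFIT2, OASL and RIGI differed by -0.99, -0.80, -0.76 and -0.98, and ATF3, the stress factor, by -1.19. SYT1, CELF4, NEFM and MAP2 are among the neuronal markers whose sum was highest in blue_3 b, and the part of these transcripts in the result was not tested.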

How the results depend on the processing

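With 2 libraries per group and few counts for the called genes, the number of calls depended on the setting. After 3 irradiations edgeR called 2 genes with TMM, RLE or upper-quartile scaling. It called 54 without a filter on low counts, 0 at a filter of 5 CPM (728 at an unadjusted p under 0.05), 0 with non-robust estimation (921 under 0.05), 22 with only the 3-irradiation libraries and 8 without the 14-irradiation libraries, while DESeq2 called 1. With the letters as a replicate block it called 11. The letters gave correlations of 0.0924, -0.287 and 0.405 between the dark and irradiated differences at 3, 14 and 42 irradiations, so they are not shown to pair libraries. Leaving out 1 library gave 0 to 6 calls. The cause was not tested. Between 14 and 3 irradiations 5 genes differed, against 15 by DESeq2, 115 without a filter, 3 at 5 CPM, 8 with non-robust estimation, 15 with the replicate block and 1 to 38 without 1 library. Between 42 and 3 it was 56, against 288 without a filter and 2 to 209 without 1 library, and 79 with the replicate block.

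List medians over the fits without 1 library were 0.10 to 0.17 for cholesterol synthesis, 0.09 to 0.27 for sterol regulation and 0.10 to 0.19 for fatty acid synthesis. They were 0.16 to 0.23 for interferon effectors, 0.09 to 0.16 for interferon signalling, 0.47 to 0.55 for alarmins and -0.32 to 0.08 for the IL-1 family. For G1/S they were -0.15 to -0.10, for the whole EGFR list -0.24 to -0.12 and for differentiation -0.03 to 0.08. Leaving out a dark_3 or blue_3 library moved the EGFR median to -0.15 or -0.12. The EGFR median was -0.13 without a filter, where more low-count members entered, and -0.12 at 5 CPM, where fewer did.

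Signs turned for 11 named genes near 0. Over the fits without 1 library, the other end of the range was -0.53 for IL1A, -0.22 for CCNE2, -0.63 for EREG, 0.18 for HBEGF, -0.83 for SPRY4, -0.21 for KRT10 and 0.38 for KRT5. Without dark_3 a IL1A was 0.13, MKI67 -0.06, EGFR -0.01, EREG 0.07, SPRY4 0.11, TP63 0.02 and KRT14 0.00. Without blue_3 b IL1A was 0.32, MKI67 -0.13, EGFR -0.04, KRT10 0.06 and TP63 0.12. Without blue_3 a CCNE2 was 0.00, HBEGF -0.01, SPRY4 0.22, KRT5 -0.20 and KRT14 -0.07, and HBEGF was -0.06 without dark_3 b. MKI67 was also -0.01 without a filter, 0.00 without blue_14 b or blue_42 a and -0.01 without blue_42 b.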
